A study of Mus musculus with 12 samples.

Results

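The 45 genes described here encode the complement and coagulation factors named in the rule for this set, from C1q to fibrinogen and the fibrinolytic proteins, in mouse liver. They were found through the transcript accession of each probe on the array, every one of the 45 had a probe, and all 45 were among the 13897 genes tested. They were split by the cell that mainly makes the protein, from general knowledge of mouse liver: 34 hepatocyte-secreted factors, 6 macrophage factors (C1qa, C1qb, C1qc, C3ar1, C5ar1 and F13a1) and 5 of other sources (Cfd, Cfp, F3, F8 and Vwf). All 45 passed the filter on background signal, which asked that both arrays of some group read the probe well above background. C3ar1, C5ar1 and F13a1 passed it through CDAHFD livers alone, where they are high, so a difference in them was built into passing, and their counts and p-values below are given as a description.

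Complement is a cascade of blood proteins that tags microbes and damaged cells. Its classical pathway starts when C1q meets a target, its lectin pathway when mannose-binding lectin meets a sugar pattern, and its alternative pathway runs without such a trigger. All of them split C3 and lead to the terminal proteins that form a pore in the target membrane. Coagulation is a cascade of proteases, started by tissue factor or by the contact system, that ends with thrombin turning fibrinogen into fibrin, which factor XIII crosslinks and plasmin dissolves. The liver is known as the main source of both systems: hepatocytes secrete most of the soluble proteins, whereas C1q and the receptors for the C3a and C5a fragments are made by macrophages.

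RNA from livers of male C57BL/6NJcl mice was hybridised to 12 one-colour arrays, 2 for each of 6 groups. The groups were CDAHFD livers and control livers after 1, 2 and 6 weeks on the diet, at 7, 8 and 12 weeks of age. CDAHFD is a choline-deficient diet of defined amino acids with 60 kcal% fat and 0.1% methionine, used to bring on steatohepatitis, and the control diet was the chow CE-2. The chow differs from CDAHFD in more than choline, so a diet difference covers the whole change of feed. The labels do not say that the 2 replicates of a group came from separate mice, so p-values measure how far these arrays differ, and that spread may be technical.

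Levels are log2 signals after each array's 75th percentile was subtracted, so a level of 0 lies at that percentile, and levels of different probes are not compared. Diet differences are CDAHFD minus control on the log2 scale, less the median of all genes (0.13, 0.05 and 0.03 at 1, 2 and 6 weeks), and are given with the standard error (SE) of the fit, which is the same at each week. A gene was called where limma's test, made before that median was subtracted, gave a Benjamini-Hochberg adjusted p under 0.05 over all genes. With n = 2 per group, every p below comes from this limma fit. A factor below background on both arrays of a group has a bound there, written as at least N-fold and taken from the levels themselves.

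The share of probes well above background was 45.4 to 49.7% in CDAHFD livers, against 40.4 to 44.4% in control livers. Control replicate 1 at 1 week stood apart from the other arrays along the second principal component, and its difference from its replicate had an SD of 0.85, where the other 5 groups had 0.29 to 0.49. Part of that array was dim, and 1 member probe in use, that of Masp1, lay there. Slide 1 held weeks 1 and 2 and slide 2 held week 6, each with both diets. Hepatocyte markers checked the tissue: all 8 listed, Alb to Tat, were measured.

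Hepatocyte-secreted factors were lower in CDAHFD livers at each week, and macrophage factors were higher. Of the 34 hepatocyte-secreted factors, 23 fell at 1 week, 24 at 2 weeks and 25 at 6 weeks, and 0 rose by limma's test. Over all genes tested, 15.0%, 14.9% and 16.2% were lower at these weeks. The median difference of the 34 was -0.74, -0.75 and -0.66, with -0.36, -0.51 and -0.53 under normexp background correction and -0.20, -0.35 and -0.44 under quantile normalization, where C3, Cfb, C4bp and Kng1 turned sign at some week. Quantile normalization ended 28 calls, all of them of hepatocyte-secreted factors: at each week those of F12, Fgb and Fgg, at 1 week those of Hc, C8a, Mbl2, Plg, Proc, Klkb1, Kng1, C3, Cfb and Cfi, at 2 weeks those of C3, Hc, C4bp, F2, F11 and Kng1, at 6 weeks those of C1ra, C4bp and F2. Of the 6 macrophage factors, 4 rose at 1 week and 6 at 2 and at 6 weeks, where 25.9%, 22.9% and 24.5% of all genes were higher. Their median difference was 1.29, 2.37 and 2.62, or 1.21, 2.10 and 2.62 with factors below background at their bound. Of the 3 C1q genes, which were above background on all 12 arrays, 1, 3 and 3 rose. The 5 factors of other sources did not move together: 1 rose at each week, 0 fell at 1 week, 1 fell at 2 weeks and 2 fell at 6 weeks.

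The 6 CDAHFD arrays lay wholly on one side of the 6 control arrays, whatever the week, for 26 of the 45 factors, against 32.0% of all genes. They were below in 19, all of them hepatocyte-secreted, and above in 7, the 6 macrophage factors and Cfp. The 32.0% counts both directions together, so neither the 19 nor the 7 has a share of its own direction beside it. C3ar1, C5ar1 and F13a1 among the 7 passed the filter through CDAHFD livers alone, so their place there is a description. Summed over the 34 hepatocyte-secreted factors on the linear scale, where 1 is an array's 75th percentile, the signal was 484 and 540 in CDAHFD livers at 1 week, against 793 and 932 in control livers. At 2 weeks it was 444 and 460 in CDAHFD livers, against 682 and 764 in control livers, and at 6 weeks 407 and 465 in CDAHFD livers, against 610 and 638 in control livers. The 2 diets did not overlap at any week, and the control sum was itself lower at 6 weeks than at 1 week. In whole liver RNA, fewer hepatocytes and less RNA per hepatocyte cannot be told apart.

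**Figure D1:**
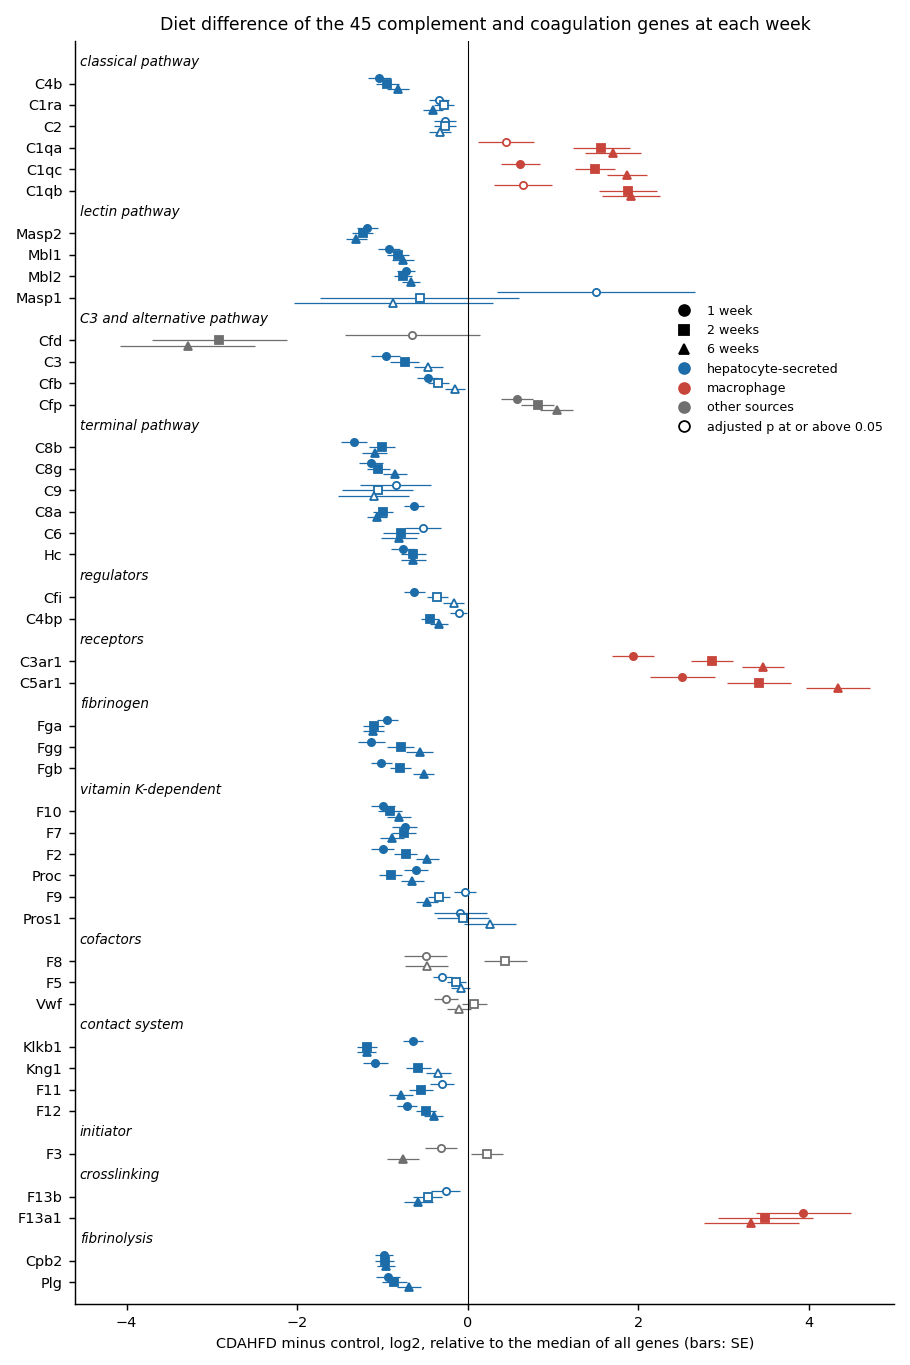
Diet difference (CDAHFD minus control, log2, relative to the median of all genes) of each of the 45 factors at 1, 2 and 6 weeks, grouped by role, with bars of 1 SE from the limma fit of 12 arrays and filled symbols for adjusted p under 0.05. Apart from Masp1 at 1 week and Pros1 at 6 weeks, the hepatocyte-secreted factors lie left of 0, and the 6 macrophage factors right of it. Differences against a group below background are drawn as fitted.

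Other signals moved with these groups. The 8 hepatocyte markers were Alb, Apoa1, Ttr, Hnf4a, Cps1, Apob, Ahsg and Tat. With CDAHFD, 7, 5 and 3 of them were lower at 1, 2 and 6 weeks, where 15.0%, 14.9% and 16.2% of all genes were. Their median differences were -0.81, -0.65 and -0.41. The 12 macrophage and monocyte markers were higher in 9, 10 and 10 cases, where 25.9%, 22.9% and 24.5% of all genes were. Ccr2, 1 of the 12, was below background on every control array. It passed the filter through CDAHFD livers alone, so its part in these counts is a description. The summed signal of the 12 was 31.3 to 35.7, 36.1 to 38.7 and 40.2 to 51.9 in CDAHFD livers at 1, 2 and 6 weeks. In control livers it was 12.1 to 18.2, 8.85 to 14.6 and 13.1 to 15.0. The differences of the 12 ran from 0.33 to 4.64 at 1 week, 0.15 to 6.34 at 2 weeks and -2.24 to 7.43 at 6 weeks, with 0 called lower. Among the 12, Clec4f, a lectin of resident Kupffer cells, was not called, at 0.33, 0.24 and 0.11. It was 1 of only 2 of the 12 not called at 2 and at 6 weeks. The 12 also include Timd4, Marco and Cd5l, and Clec4f alone does not stand for the resident cells. Trem2, a receptor of lipid-laden macrophages, rose by 4.64, 6.34 and 7.43, the largest differences of the 12. The 6 stellate cell and fibroblast markers were higher in 5, 5 and 5 cases, beside the same 25.9%, 22.9% and 24.5% of all genes. Their summed signal was 5.60 to 7.00, 6.71 to 7.93 and 7.26 to 8.79 in CDAHFD livers. In control livers it was 1.13 to 1.77, 1.07 to 1.21 and 0.867 to 0.995. The part of these cells in the results on the factors was not tested.

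Signal level also moved with the diet difference, as the plot of difference against level shows. Of the 34 hepatocyte-secreted factors, 24 lay among the brightest 10% of all genes by mean level. There, 21, 20 and 19 of the 24 fell at 1, 2 and 6 weeks, with medians of -0.94, -0.79 and -0.64. The other 1366 genes of that level were lower in 49.2%, 45.0% and 36.8% of cases, with medians of -0.51, -0.40 and -0.31. Of the 10 hepatocyte-secreted factors outside the brightest 10%, 2, 4 and 6 fell, with medians of -0.30, -0.55 and -0.77. The part of signal level in the diet difference was not tested.

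**Figure D2:**
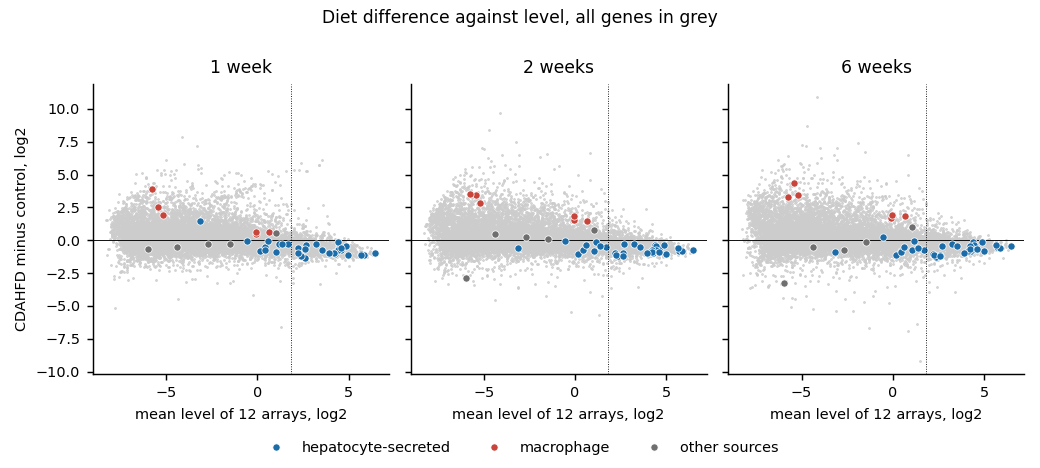
Diet difference (CDAHFD minus control, log2) against mean level over 12 arrays (log2) at 1, 2 and 6 weeks, with the 13897 genes in grey, hepatocyte-secreted factors in blue, macrophage factors in red and factors of other sources in dark grey. The dotted line marks the start of the brightest 10% of genes, which holds 24 of the 34 hepatocyte-secreted factors and 0 of the 6 macrophage factors.

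The classical pathway split by source. C1qa, C1qb and C1qc, which encode the 3 chains of C1q, the recognition protein that starts the pathway, rose in CDAHFD livers at 2 and 6 weeks. C4b, whose product C4 forms part of the C3-cleaving enzyme, fell at each week. C1qa read -0.01 and 0.24 at 1 week, 0.32 and 0.76 at 2 weeks and 1.20 and 0.95 at 6 weeks in CDAHFD livers, against -0.28 and -0.65, -1.62 and -0.53, and -0.87 and -0.46 in control livers. C1qb read 0.27 and 0.33 at 1 week, 0.54 and 0.89 at 2 weeks and 1.38 and 0.91 at 6 weeks in CDAHFD livers, against -0.15 and -0.80, -1.71 and -0.72, and -1.02 and -0.59 in control livers. C1qc read 0.79 and 1.10 at 1 week, 1.28 and 1.31 at 2 weeks and 2.03 and 1.70 at 6 weeks in CDAHFD livers, against 0.44 and -0.05, -0.58 and 0.08, and -0.14 and 0.07 in control livers. For each chain every CDAHFD array was above every control array, and the gap was narrowest at 1 week. The differences of C1qb were 0.65, 1.88 and 1.92 (SE 0.34) (adjusted p = 0.0991, 0.00217 and 0.00183), those of C1qc 0.62, 1.49 and 1.86 (SE 0.23) (adjusted p = 0.0272, 0.000601 and 0.000135) and those of C1qa 0.45, 1.57 and 1.70 (SE 0.33) (adjusted p = 0.189, 0.00457 and 0.00285), so at 1 week C1qc alone of the 3 was called. That call was lost without CDAHFD replicate 1 or 2 or control replicate 2 of that week (0.80, 0.42 and 0.39, with adjusted p = 0.0533, 0.147 and 0.163) and, at an unchanged value, with arrays centred on the median (adjusted p = 0.0735) or on the percentile over all probes (adjusted p = 0.143), and the 2-week difference of C1qa was 1.04 without control replicate 1 of that week.

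The promoters of 2 of the C1q genes, which lie close together on chromosome 4, are shown because their genes rose together, with capitals marking the motif GAGGAA, the core that the macrophage factor PU.1 binds, on either strand. Sequences are the 250 bases before the start site from RefSeq on GRCm38.p6, read 5′ to 3′ on the gene's strand, at chr4:136886201-136886450 (minus strand) for C1qb and chr4:136892915-136893164 (minus strand) for C1qc.
C1qb: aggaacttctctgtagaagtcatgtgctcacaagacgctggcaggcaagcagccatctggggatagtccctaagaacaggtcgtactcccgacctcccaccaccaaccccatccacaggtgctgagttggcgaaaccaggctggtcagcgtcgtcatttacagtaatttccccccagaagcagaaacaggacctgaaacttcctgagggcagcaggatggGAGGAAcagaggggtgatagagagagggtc
C1qc: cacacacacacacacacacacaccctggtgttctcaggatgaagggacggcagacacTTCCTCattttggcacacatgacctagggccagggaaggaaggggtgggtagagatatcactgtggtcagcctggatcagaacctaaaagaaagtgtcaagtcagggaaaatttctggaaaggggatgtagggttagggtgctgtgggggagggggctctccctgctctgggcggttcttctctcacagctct
The match began 30 bases before the start site in C1qb and 193 bases before it, on the opposite strand, in C1qc. GAGGAA was found in 3 of the 5 macrophage factor genes with a RefSeq promoter (C1qb, C1qc and F13a1), in 3 of the 26 hepatocyte-secreted ones, and in 28.3% of the 32851 promoters in the RefSeq table, searched from 250 bases before to 50 after the start. A match describes letters and does not show binding.

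**Figure D3:**
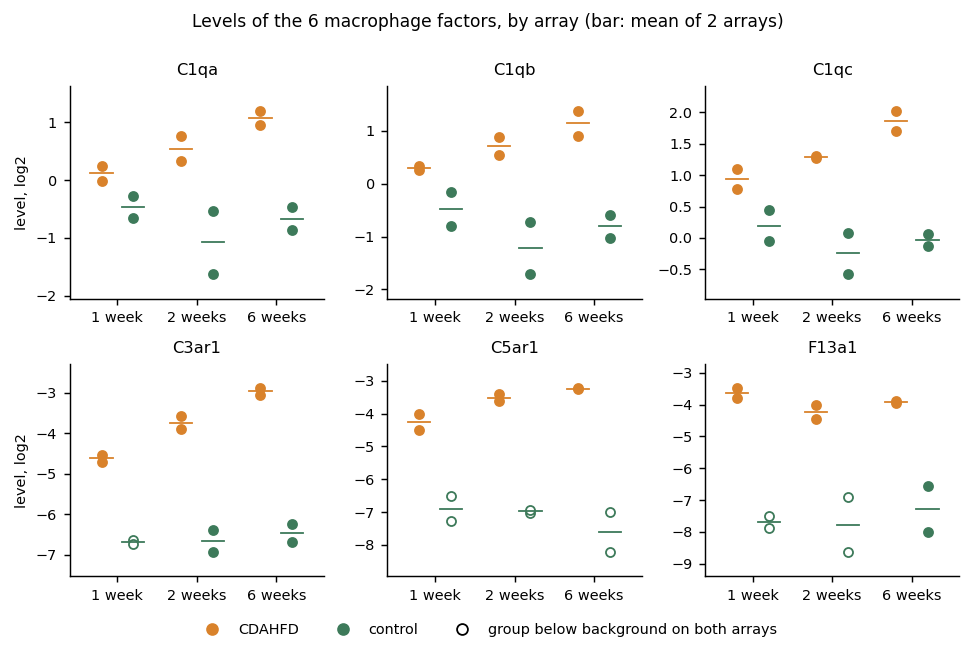
Level (log2, relative to each array's 75th percentile) of the 6 macrophage factors on each array at 1, 2 and 6 weeks, CDAHFD in orange and control in green, with a bar at the mean of 2 arrays and open circles where both arrays of a group were below background. In all 6 panels the CDAHFD points lie above the control points at each week.

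C4b read 4.13 and 4.32 at 1 week, 3.75 and 3.74 at 2 weeks and 3.68 and 3.41 at 6 weeks in CDAHFD livers, against 5.27 and 4.99, 4.68 and 4.60, and 4.37 and 4.29 in control livers. The diets were apart at each week, and both were lower at 6 weeks than at 1 week. Its differences were -1.04, -0.95 and -0.82 (SE 0.13) (adjusted p = 0.000511, 0.000477 and 0.000965), and the one at 1 week was -0.32 and not called (adjusted p = 0.107) when the 1-week CDAHFD livers were set against controls of 2 and 6 weeks. The other hepatocyte-secreted members of the pathway moved less. C1ra, a protease of the C1 complex, was called at 6 weeks alone, at -0.41 ± 0.12 (adjusted p = 0.0252), and lost the call without CDAHFD replicate 2 or control replicate 1 or 2 of that week (-0.27, -0.46 and -0.35, with adjusted p = 0.141, 0.0532 and 0.15). Its other probe gave -0.87, 0.47 and 0.22. C2, the protease that joins C4, differed by -0.27, -0.27 and -0.32 (SE 0.13) and was not called at any week (adjusted p = 0.419, 0.212 and 0.101).

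In the lectin pathway, Masp2, Mbl1 and Mbl2 fell at each week. MASP-2 is the protease that cleaves C4 and C2 once a lectin is bound, and Mbl1 and Mbl2 encode the 2 mouse mannose-binding lectins. Masp2 read 1.97 and 2.15 at 1 week, 1.79 and 1.66 at 2 weeks and 1.63 and 1.52 at 6 weeks in CDAHFD livers, against 3.16 and 3.06, 3.04 and 2.77, and 2.93 and 2.76 in control livers. All CDAHFD arrays were below all control arrays, with the 2 replicates of a group close together. Its differences of -1.18, -1.23 and -1.31 (SE 0.13) (adjusted p = 0.000154, 5.19e-05 and 2.48e-05) were called under each alternative run. Averaged over the weeks Masp2 stood at -1.24, the steepest among the 34 hepatocyte-secreted factors. A second Masp2 probe gave -1.19, -1.21 and -1.25 and another, dimmer one -0.11, -0.53 and -0.55, so the probes of this gene disagree in size. Mbl1 differed by -0.92, -0.82 and -0.76 (SE 0.13) and Mbl2 by -0.73, -0.76 and -0.67 (SE 0.11).

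Masp1, a related protease whose product MASP-1 activates MASP-2, was not called at any week. It read -2.73 and -2.70 at 1 week, -3.13 and -3.11 at 2 weeks and -3.54 and -3.44 at 6 weeks in CDAHFD livers, against -6.43 and -2.26, -2.48 and -2.74, and -2.66 and -2.64 in control livers. The control value of -6.43 comes from the dim part of control replicate 1 at 1 week, and the 2 diets were apart at 2 and 6 weeks. With all spots its differences were 1.50, -0.56 and -0.87 (SE 1.17) (adjusted p = 0.304, 0.768 and 0.612). With the dim spots of that array left out they were -0.58, -0.56 and -0.87 (adjusted p = 0.0537, 0.0142 and 0.000861), so that Masp1 was then called lower at 2 and 6 weeks.

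C3 and the alternative pathway held members of 3 sources. C3, the protein on which the pathways meet, fell at 1 and 2 weeks. Cfp, which encodes properdin, a leukocyte protein that stabilises the alternative C3-cleaving enzyme, rose at each week. C3 read 6.14 and 6.32 at 1 week, 6.18 and 6.01 at 2 weeks and 6.21 and 5.96 at 6 weeks in CDAHFD livers, against 7.24 and 6.88, 6.95 and 6.63, and 6.60 and 6.42 in control livers. CDAHFD arrays were below control arrays throughout, and the control level was lowest at 6 weeks. Its differences were -0.96, -0.74 and -0.46 (SE 0.17) (adjusted p = 0.00293, 0.00829 and 0.0631), without a call at 6 weeks. The 2-week call was lost without CDAHFD replicate 2 or control replicate 1 of that week (-0.66 and -0.56, with adjusted p = 0.0705 and 0.0725), and under quantile normalization C3 was at 0.027 and 0.015 at 1 and 2 weeks and not called (adjusted p = 0.318 and 0.855). A second C3 probe gave -0.77, -0.49 and -0.22. Cfb, factor B, which joins C3b in the alternative enzyme, was called lower at 1 week alone, at -0.47 ± 0.12 (adjusted p = 0.0437), a call lost without either replicate of either diet at that week (adjusted p = 0.14, 0.128, 0.193 and 0.0633) and, at an unchanged value, without either CDAHFD replicate of 2 weeks or either control replicate of 6 weeks (0.0584 to 0.0688).

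Cfp read 1.14 and 1.68 at 1 week, 1.39 and 1.38 at 2 weeks and 1.74 and 1.47 at 6 weeks in CDAHFD livers, against 0.90 and 0.51, 0.36 and 0.67, and 0.46 and 0.60 in control livers. Every CDAHFD array was above every control array. Its differences were 0.58, 0.82 and 1.04 (SE 0.19) (adjusted p = 0.0146, 0.0052 and 0.00135). At 1 week the value was 0.27 without CDAHFD replicate 2 (adjusted p = 0.118), 0.86 without CDAHFD replicate 1 and 0.40 without control replicate 2 (adjusted p = 0.0974), and the call was also lost with arrays centred on the median (adjusted p = 0.0565) or on the percentile over all probes (adjusted p = 0.123). Cfd, factor D or adipsin, the protease that cleaves factor B and a product of adipocytes, read -6.27 and -7.89 at 1 week, -8.58 and -8.49 at 2 weeks and -6.69 and -4.58 at 6 weeks in CDAHFD livers, against -6.55 and -6.58, -4.77 and -6.57, and -2.59 and -2.19 in control livers. Control livers of 6 weeks were the brightest, and the diets overlapped at 1 week. Both CDAHFD arrays of 2 weeks were below background, which makes Cfd at least 2.68-fold lower there (adjusted p = 0.0191), and at 6 weeks it differed by -3.28 ± 0.79 (adjusted p = 0.00982). The 2-week call was lost without either CDAHFD replicate or control replicate 1 of that week (adjusted p = 0.0886, 0.0836 and 0.126), and the 6-week call without CDAHFD replicate 1 or control replicate 2 (adjusted p = 0.0506 and 0.0553). Of the adipocyte markers, Lep and Plin1 were below background on all 12 arrays and Adipoq was above it on 2, replicate 2 of each diet at 6 weeks, and Retn on 1, control replicate 2 at 6 weeks. Adrb3, the one of the 5 that was tested, was above background on all 12 arrays and differed by 1.62, -0.10 and -0.40 (SE 0.24), called at 1 week alone (adjusted p = 0.000335). The part of adipose tissue in the Cfd signal was not tested.

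**Figure D4:**
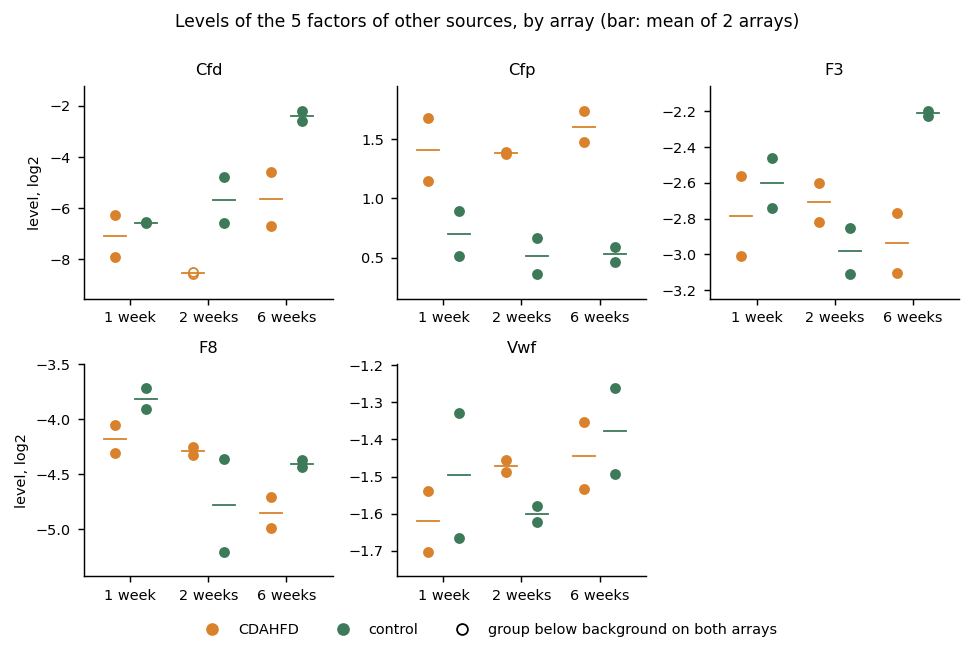
Level (log2, relative to each array's 75th percentile) of the 5 factors of other sources on each array at 1, 2 and 6 weeks, CDAHFD in orange and control in green, with a bar at the mean of 2 arrays and open circles where both arrays of a group were below background. Cfp is above control with CDAHFD at each week, Cfd is below it at 2 and 6 weeks, and F3 at 6 weeks.

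Most genes of the terminal pathway fell. Hc encodes C5, whose C5a fragment draws leukocytes and whose C5b fragment starts the membrane pore, and C6, C8a, C8b, C8g and C9 encode the parts that build it. Of the 6, 4 were lower at 1 week and 5 at 2 and at 6 weeks, where 15.0%, 14.9% and 16.2% of all genes were, with median differences of -0.80, -1.0 and -0.96. C8b read 2.40 and 2.66 at 1 week, 1.96 and 1.90 at 2 weeks and 1.64 and 1.85 at 6 weeks in CDAHFD livers, against 3.92 and 3.54, 2.90 and 2.86, and 2.69 and 2.92 in control livers. CDAHFD arrays were below all control arrays, and the controls of 1 week were higher than those of 2 and 6 weeks. Its differences were -1.33, -1.0 and -1.09 (SE 0.15) (adjusted p = 0.000202, 0.000696 and 0.000301), but the 1-week value was -0.37 and not called (adjusted p = 0.0881) against controls of 2 and 6 weeks. Hc read 4.37 and 4.56 at 1 week, 4.26 and 4.22 at 2 weeks and 4.16 and 4.01 at 6 weeks in CDAHFD livers, against 5.32 and 4.87, 4.88 and 4.77, and 4.71 and 4.67 in control livers. The diets did not overlap, and Hc had the least steep average difference of the 6, with -0.76, -0.64 and -0.64 (SE 0.15) (adjusted p = 0.00649, 0.00938 and 0.00734).

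C8g, the lipocalin-like chain of C8, differed by -1.13, -1.05 and -0.85 (SE 0.14) and kept its calls under each alternative run. C8a, the alpha chain, differed by -0.63, -0.99 and -1.06 (SE 0.11), with no overlap of the diets at any week. A second C8a probe gave -0.31, -0.80 and -0.97. C6 was called at 2 and 6 weeks, at -0.78 ± 0.21 and -0.81. C9, which polymerises to form the pore, differed by -0.85, -1.06 and -1.10 (SE 0.41), but its replicates lay far apart and it was not called at any week (adjusted p = 0.201, 0.0919 and 0.0722). The calls of Hc at 1 week were lost without CDAHFD replicate 1 or control replicate 1 (adjusted p = 0.0637 and 0.0529), at 2 weeks without CDAHFD replicate 2 or control replicate 1 (0.0583 and 0.06), and against controls of 2 and 6 weeks (-0.35, adjusted p = 0.101). Those of C6 were lost at 2 weeks without either CDAHFD replicate or control replicate 1 (adjusted p = 0.0988, 0.0694 and 0.134) and at 6 weeks without CDAHFD replicate 1 or control replicate 2 (0.081 and 0.108), and that of C8a at 1 week without CDAHFD replicate 1 (0.069).

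The 2 soluble regulators were called lower at some weeks and not at others. Cfi encodes factor I, the protease that cuts C3b and C4b, and C4bp the protein that helps it on C4b. Cfi read 4.24 and 4.43 at 1 week, 4.10 and 4.22 at 2 weeks and 4.36 and 4.10 at 6 weeks in CDAHFD livers, against 4.90 and 4.77, 4.42 and 4.51, and 4.36 and 4.36 in control livers. It was called at 1 week alone (-0.63 ± 0.12, adjusted p = 0.00869), and the diets met at 6 weeks. C4bp read 4.48 and 4.53 at 1 week, 4.14 and 4.22 at 2 weeks and 4.34 and 4.19 at 6 weeks in CDAHFD livers, against 4.51 and 4.46, 4.56 and 4.58, and 4.50 and 4.64 in control livers. The diets overlapped at 1 week and were apart after it, with calls at 2 weeks (-0.44 ± 0.10, adjusted p = 0.0134) and 6 weeks (-0.34 ± 0.10, adjusted p = 0.0384). The Cfi call was lost without replicate 1 of either diet at that week (adjusted p = 0.0816 in CDAHFD and 0.0578 in control) and against controls of 2 and 6 weeks (-0.14, adjusted p = 0.62). That of C4bp at 2 weeks was lost without CDAHFD replicate 1 or control replicate 2 (adjusted p = 0.096 and 0.0528), and at 6 weeks without any of 7 arrays, 4 of them CDAHFD arrays of 1 and 2 weeks (0.0514 to 0.217).

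The receptors for the complement fragments rose at each week. C3ar1 and C5ar1 encode the receptors of C3a and C5a on myeloid cells. C3ar1 read -4.53 and -4.70 at 1 week, -3.90 and -3.58 at 2 weeks and -2.89 and -3.05 at 6 weeks in CDAHFD livers, against -6.63 and -6.72, -6.92 and -6.39, and -6.24 and -6.69 in control livers. C5ar1 read -4.01 and -4.49 at 1 week, -3.61 and -3.41 at 2 weeks and -3.23 and -3.24 at 6 weeks in CDAHFD livers, against -6.52 and -7.27, -7.01 and -6.94, and -8.21 and -7.01 in control livers. Both genes were well above background on all 6 CDAHFD arrays, C3ar1 on 2 control arrays and C5ar1 on 0. C3ar1 was at least 3.76-fold higher at 1 week (adjusted p = 0.000156) and differed by 2.86 ± 0.25 at 2 weeks (adjusted p = 1.36e-05) and 3.46 ± 0.25 at 6 weeks (adjusted p = 3.27e-06). C5ar1 was at least 5.17-fold, 8.53-fold and 11.4-fold higher at 1, 2 and 6 weeks (adjusted p = 0.000439, 6.35e-05 and 1.08e-05). With normexp background correction the 1-week values were 0.16 and 0.57 and were not called (adjusted p = 0.907 and 0.253).

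All 3 fibrinogen genes, which encode the chains that thrombin turns into fibrin, fell at each week. Fga read 1.93 and 2.07 at 1 week, 1.62 and 1.80 at 2 weeks and 1.71 and 1.46 at 6 weeks in CDAHFD livers, against 2.78 and 2.85, 2.74 and 2.79, and 2.55 and 2.77 in control livers. Fgb read 5.29 and 5.50 at 1 week, 5.28 and 5.32 at 2 weeks and 5.37 and 5.17 at 6 weeks in CDAHFD livers, against 6.34 and 6.22, 6.08 and 5.99, and 5.82 and 5.68 in control livers. Fgg read 5.53 and 5.65 at 1 week, 5.51 and 5.43 at 2 weeks and 5.40 and 5.33 at 6 weeks in CDAHFD livers, against 6.79 and 6.40, 6.38 and 6.03, and 5.98 and 5.80 in control livers. In each gene the 6 CDAHFD arrays were below the 6 control arrays, and Fgb and Fgg differed between the weeks within the control diet (adjusted p = 0.0448 and 0.0406). The differences of Fga were -0.94, -1.10 and -1.11 (SE 0.12) (adjusted p = 0.000624, 0.000101 and 7.39e-05), those of Fgb -1.01, -0.79 and -0.52 (SE 0.12) (adjusted p = 0.000365, 0.000912 and 0.00979) and those of Fgg -1.13, -0.79 and -0.56 (SE 0.16) (adjusted p = 0.000752, 0.00429 and 0.0213). The smaller values of Fgb and Fgg at 6 weeks are not shown to differ from those at 1 week (adjusted p = 0.195 and 0.233 for 6 weeks minus 1 week).

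Fga kept its calls under each alternative run, while Fgb and Fgg lost theirs under quantile normalization at each week (adjusted p = 0.341, 0.204 and 0.743 for Fgb and 0.142, 0.269 and 0.244 for Fgg). At 6 weeks the call of Fgb was also lost without CDAHFD replicate 2 or control replicate 1 (adjusted p = 0.0541 and 0.0817), and that of Fgg without the same arrays (0.0737 and 0.134). A second Fga probe gave -0.81, -1.01 and -0.55.

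**Figure D5:**
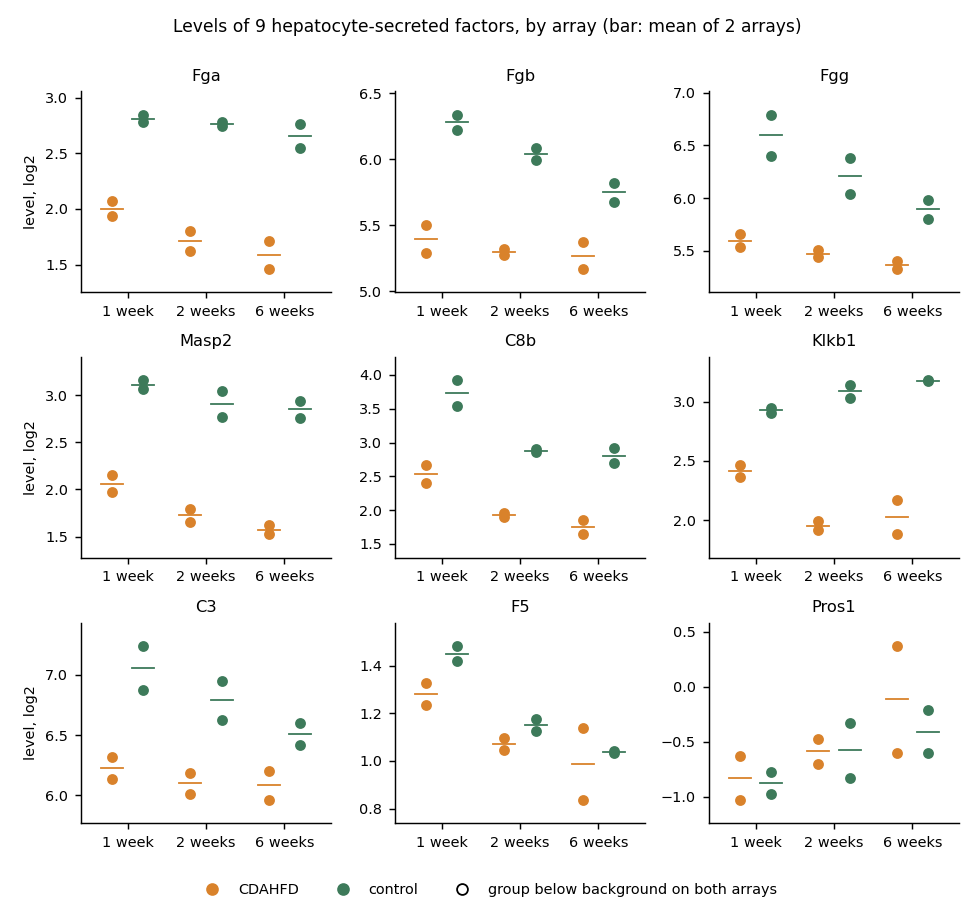
Level (log2, relative to each array's 75th percentile) of 9 hepatocyte-secreted factors on each array at 1, 2 and 6 weeks, CDAHFD in orange and control in green, with a bar at the mean of 2 arrays. In Fga, Fgb, Fgg, Masp2, C8b, Klkb1 and C3 the CDAHFD points lie below the control points at each week, in F5 at 1 and 2 weeks, and in Pros1 the diets overlap.

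The fibrinogen promoters are shown because the 3 genes form a cluster on chromosome 3 and fell together, with capitals marking 4 motifs on either strand: TTCNNNGAA (STAT), TTGCNNAA (C/EBP), GTTAAT (HNF1) and CAAAGNNCA (HNF4). They are the 250 bases before the start site from RefSeq on GRCm38.p6, read 5′ to 3′ on the gene's strand, at chr3:83025903-83026152 (plus strand) for Fga, chr3:83049864-83050113 (minus strand) for Fgb and chr3:83007474-83007723 (plus strand) for Fgg.
Fga: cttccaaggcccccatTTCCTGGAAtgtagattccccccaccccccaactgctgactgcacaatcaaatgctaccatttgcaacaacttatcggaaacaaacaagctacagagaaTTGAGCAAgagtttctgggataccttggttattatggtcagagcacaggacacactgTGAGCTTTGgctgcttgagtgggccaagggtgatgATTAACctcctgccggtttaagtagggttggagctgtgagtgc
Fgb: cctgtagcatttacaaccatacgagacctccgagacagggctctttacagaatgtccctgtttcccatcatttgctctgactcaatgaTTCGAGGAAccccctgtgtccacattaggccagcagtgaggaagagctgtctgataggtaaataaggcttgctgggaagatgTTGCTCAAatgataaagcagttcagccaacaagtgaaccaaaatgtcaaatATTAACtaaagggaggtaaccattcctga
Fgg: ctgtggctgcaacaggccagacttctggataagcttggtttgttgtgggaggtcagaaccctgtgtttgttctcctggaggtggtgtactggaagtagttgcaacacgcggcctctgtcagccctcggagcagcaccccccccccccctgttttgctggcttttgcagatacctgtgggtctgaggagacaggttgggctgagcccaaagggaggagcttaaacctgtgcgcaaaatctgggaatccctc
Fga held all 4 motifs once, with first bases 234 (STAT), 135 (C/EBP), 78 (HNF4) and 43 (HNF1) bases before the start. Fgb held 3, with first bases 162 (STAT), 80 (C/EBP) and 29 (HNF1) bases before the start, and there GAGGAA, the PU.1 core, overlaps the STAT match. Fgg held 0 of the 4 in this window. Over the 26 hepatocyte-secreted factors with a RefSeq promoter, STAT was found in 7, C/EBP in 9, HNF1 in 9 and HNF4 in 4, and among the 5 macrophage factors in 0. Of all 32851 promoters, 8.30% held STAT, 10.8% C/EBP, 7.10% HNF1 and 6.36% HNF4.

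Among the vitamin K-dependent factors, F2, F7, F10 and Proc fell at each week, F9 at 6 weeks, and Pros1 was not called. F2 encodes prothrombin, F7 and F10 the proteases upstream of thrombin, F9 the protease missing in human haemophilia B, and Proc and Pros1 the anticoagulant protein C and its cofactor protein S. F10 read 3.82 and 4.02 at 1 week, 3.73 and 3.55 at 2 weeks and 3.75 and 3.37 at 6 weeks in CDAHFD livers, against 4.84 and 4.73, 4.58 and 4.41, and 4.33 and 4.32 in control livers. Pros1 read -0.62 and -1.03 at 1 week, -0.70 and -0.48 at 2 weeks and 0.37 and -0.60 at 6 weeks in CDAHFD livers, against -0.77 and -0.97, -0.82 and -0.33, and -0.60 and -0.21 in control livers. The diets were apart at each week for F10 and overlapped at each week for Pros1. F10 differed by -0.99, -0.91 and -0.80 (SE 0.14) (adjusted p = 0.000982, 0.00092 and 0.00164), and Pros1 by -0.09, -0.06 and 0.26 (SE 0.31) (adjusted p = 0.919, 0.985 and 0.479).

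F7, at -0.74, -0.75 and -0.88 (SE 0.14), kept its calls under each alternative run, as did F10. F2 differed by -1.0, -0.73 and -0.47 (SE 0.13) and Proc by -0.61, -0.91 and -0.65 (SE 0.14). The F2 call at 6 weeks was lost without CDAHFD replicate 2 or control replicate 1 or 2 of that week (adjusted p = 0.0863, 0.0823 and 0.106), the F2 value at 1 week was -0.32 against controls of 2 and 6 weeks (adjusted p = 0.113), and the Proc call at 1 week was lost without replicate 1 of either diet (adjusted p = 0.147 in CDAHFD and 0.102 in control). F9 was called at -0.48 ± 0.13 (adjusted p = 0.0169) at 6 weeks alone, and was at -0.28 without CDAHFD replicate 2 (adjusted p = 0.108) and not called without control replicate 1 (adjusted p = 0.101).

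Of the cofactors none was called at any week. F5 encodes factor V, the cofactor of factor Xa, F8 factor VIII, the cofactor of factor IXa made by endothelium, and Vwf the von Willebrand factor that carries it. F8 read -4.05 and -4.31 at 1 week, -4.32 and -4.25 at 2 weeks and -4.71 and -4.99 at 6 weeks in CDAHFD livers, against -3.72 and -3.91, -5.20 and -4.36, and -4.43 and -4.37 in control livers. Vwf read -1.70 and -1.54 at 1 week, -1.49 and -1.46 at 2 weeks and -1.53 and -1.35 at 6 weeks in CDAHFD livers, against -1.66 and -1.33, -1.58 and -1.62, and -1.49 and -1.26 in control livers. Neither gene kept one order of the diets over the weeks. F8 differed by -0.49, 0.44 and -0.48 (SE 0.25) (adjusted p = 0.273, 0.154 and 0.187) and Vwf by -0.26, 0.08 and -0.10 (SE 0.14) (adjusted p = 0.508, 0.509 and 0.749). A second F8 probe, above background on 9 arrays, gave -0.74, -0.05 and -0.95, without the rise at 2 weeks. F5 differed by -0.30, -0.13 and -0.08 (SE 0.11), while its other probe gave 0.35, -0.47 and -0.04. Of the 7 endothelial markers, 0, 1 and 4 were lower at 1, 2 and 6 weeks, where 15.0%, 14.9% and 16.2% of all genes were. In addition 1, Lyve1, was higher at each week, where 25.9%, 22.9% and 24.5% of all genes were. The summed signal of the 7 was 4.13 to 4.50, 3.47 to 3.69 and 3.01 to 3.07 in CDAHFD livers. In control livers it was 3.59 to 3.75, 3.18 to 3.87 and 3.70 to 3.84. The part of endothelium in the values of F8 and Vwf was not tested.

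In the contact system, which starts clotting on charged surfaces, Klkb1 and F12 fell at each week, Kng1 at 1 and 2 weeks and F11 at 2 and 6 weeks. Klkb1 encodes plasma prekallikrein, F12 and F11 the factors XII and XI, and Kng1 kininogen, the precursor of bradykinin. Klkb1 read 2.36 and 2.47 at 1 week, 1.92 and 1.99 at 2 weeks and 2.17 and 1.88 at 6 weeks in CDAHFD livers, against 2.91 and 2.95, 3.03 and 3.14, and 3.18 and 3.17 in control livers. F12 read 3.32 and 3.48 at 1 week, 3.21 and 3.32 at 2 weeks and 3.35 and 3.11 at 6 weeks in CDAHFD livers, against 4.05 and 3.93, 3.74 and 3.67, and 3.62 and 3.57 in control livers. For both genes every CDAHFD array was below every control array. Klkb1 differed by -0.64, -1.18 and -1.19 (SE 0.11) (adjusted p = 0.00503, 3.57e-05 and 2.49e-05), and F12 by -0.72, -0.49 and -0.40 (SE 0.12) (adjusted p = 0.00269, 0.0124 and 0.0275). A second Klkb1 probe, which lies in the dim part of control replicate 1 at 1 week, gave 1.62, -1.14 and -1.07, and the mean of both probes 0.48, -1.16 and -1.13, not called at any week (adjusted p = 0.472, 0.215 and 0.216). Under quantile normalization F12 was at -0.18, -0.10 and -0.12 and not called at any week (adjusted p = 0.304, 0.436 and 0.193), and Klkb1 and Kng1 were not called at 1 week (adjusted p = 0.204 and 0.123).

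By the probes in use, Kng1 was the steepest of the 4 contact genes at 1 week, at -1.09 ± 0.15. It stood at -0.58 ± 0.15 and -0.34 ± 0.15 later, while F11 stood at -0.30, -0.54 and -0.78 (SE 0.14). A second Kng1 probe gave -0.37, -0.51 and -0.65, so the probes of Kng1 disagree on the course over the weeks. Calls lost on leaving out an array were those of F12 at 2 weeks without CDAHFD replicate 1 or control replicate 1 (adjusted p = 0.0912 and 0.0675) and at 6 weeks without CDAHFD replicate 2 or control replicate 1 or 2 (0.148, 0.125 and 0.0842). Kng1 at 2 weeks was not called without CDAHFD replicate 2 or control replicate 1 (adjusted p = 0.117 and 0.109), nor F11 at 2 weeks without any 1 of the 4 arrays of that week (0.0507 to 0.112). Against controls of 2 and 6 weeks, the 1-week value of Kng1 was -0.31 and that of F12 -0.31, neither called (adjusted p = 0.152 and 0.0793).

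F3 encodes tissue factor, the membrane protein of stromal and other cells that starts clotting with factor VII. It read -2.56 and -3.01 at 1 week, -2.82 and -2.60 at 2 weeks and -3.10 and -2.77 at 6 weeks in CDAHFD livers, against -2.46 and -2.74, -2.85 and -3.11, and -2.20 and -2.22 in control livers. The diets overlapped at 1 week, CDAHFD was above control at 2 weeks and below it at 6 weeks. F3 was called at 6 weeks alone, at -0.76 ± 0.19 (adjusted p = 0.0115), and not without replicate 1 of either diet at that week (adjusted p = 0.0702 in CDAHFD and 0.0596 in control).

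The 2 genes of factor XIII, which crosslinks fibrin, had diet differences of opposite sign, but that of F13b was not called at 1 and 2 weeks. F13a1 encodes the catalytic subunit, known from macrophages and platelets, and F13b the carrier subunit, from hepatocytes. F13a1 read -3.49 and -3.78 at 1 week, -4.44 and -4.03 at 2 weeks and -3.94 and -3.89 at 6 weeks in CDAHFD livers, against -7.89 and -7.50, -8.63 and -6.92, and -7.99 and -6.56 in control livers. F13b read 1.27 and 1.17 at 1 week, 1.02 and 1.14 at 2 weeks and 1.41 and 0.98 at 6 weeks in CDAHFD livers, against 1.40 and 1.29, 1.27 and 1.73, and 1.72 and 1.76 in control livers. F13a1 was above background on all 6 CDAHFD arrays and on 1 control array, and its diets were far apart, while those of F13b lay closer. F13a1 was at least 7.94-fold and 5.17-fold higher at 1 and 2 weeks (adjusted p = 0.000407 and 0.000799) and differed by 3.32 ± 0.56 at 6 weeks (adjusted p = 0.000961). A second F13a1 probe was below background on all 12 arrays. F13b was called at 6 weeks alone, at -0.58 ± 0.17 (adjusted p = 0.0251), a value of -0.36 without CDAHFD replicate 2 (adjusted p = 0.167), and not called without either control replicate (adjusted p = 0.084 and 0.103).

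Of the 5 platelet markers listed, 3 were tested. Pf4 rose at each week (1.03, 2.08 and 2.59), where 25.9%, 22.9% and 24.5% of all genes were higher, and Ppbp and Itga2b were not called. Gp9, above background on 2 arrays, and Gp1ba, below it on all arrays, were not tested. The part of platelets in the F13a1 values was not tested.

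Both fibrinolysis genes fell at each week. Plg encodes plasminogen, the precursor of plasmin, and Cpb2 the carboxypeptidase known as TAFI, which slows fibrin breakdown. Cpb2 read 3.49 and 3.57 at 1 week, 3.33 and 3.46 at 2 weeks and 3.47 and 3.47 at 6 weeks in CDAHFD livers, against 4.47 and 4.29, 4.27 and 4.37, and 4.36 and 4.43 in control livers. Plg read 3.99 and 4.09 at 1 week, 3.75 and 3.73 at 2 weeks and 3.90 and 3.52 at 6 weeks in CDAHFD livers, against 4.96 and 4.72, 4.62 and 4.48, and 4.41 and 4.31 in control livers. No CDAHFD array reached the control arrays in either gene. Cpb2 differed by -0.98, -0.98 and -0.96 (SE 0.11) (adjusted p = 0.000193, 8.65e-05 and 7.33e-05) and Plg by -0.93, -0.86 and -0.69 (SE 0.14) (adjusted p = 0.00142, 0.00129 and 0.00416). Cpb2 kept its calls under each alternative run.

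Called lower at all 3 weeks were 19 of the 34 hepatocyte-secreted factors, against 7.07% of all genes: C4b, Hc, C8a, C8b, C8g, Masp2, Mbl1, Mbl2, F2, F7, F10, F12, Fga, Fgb, Fgg, Plg, Proc, Klkb1 and Cpb2. Of these, 7 (C8g, Masp2, Mbl1, F7, F10, Fga and Cpb2) kept each call under all alternatives run. At none of the weeks were 5 called, namely C2, C9, Masp1, F5 and Pros1, and the other 10 were called at some. In the average over weeks, 31 of the 34 were lower, against 25.7% of all genes, and 6 of the 6 macrophage factors higher, against 35.6% of all genes. C3ar1, C5ar1 and F13a1 among the 6 passed the filter through CDAHFD livers alone, so their part in that count is a description.

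The weeks were compared next. The F test of a diet difference that changes between weeks called 0 of the 45 factors by limma, against 2.41% of all genes. The smallest adjusted p was 0.0724, for Klkb1. At an unadjusted p under 0.05 there were 11 factors, with no share of all genes at that threshold to set beside them. Between 6 weeks and 1 week alone, 2 of the 45 were called, Klkb1 and C3ar1, a share no larger than the 5.40% of all genes. These changes are given less their own median over all genes, -0.03, so they are not the exact gap between the weekly differences. The diet difference of Klkb1 was further down at 6 weeks by this measure (-0.61, adjusted p = 0.0468). That of C3ar1 was at 1.46, but with both control arrays of 1 week below background its 1-week difference is a lower limit, and no change between the weeks is read from it. C1qc stood at 1.18 and was not called (adjusted p = 0.0701), and the other 42 factors were not called either. Weeks 1 and 2 share a slide, and between them 0 of the 45 were called by limma, against 1.28% of all genes. The 7 factors at an unadjusted p under 0.05 have no share of all genes at that threshold beside them either.

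Within the control diet, 8 of the 45 factors differed between weeks, against 11.5% of all genes: C4b, C8b, F2, F9, Fgb, Fgg, Kng1 and Cfd. Age and, at 6 weeks, slide change with the week and cannot be told apart from it. Since controls of 1 week were high for several hepatocyte genes, CDAHFD livers of 1 week were also set against controls of 2 and 6 weeks. Then 17 of the 34 hepatocyte-secreted factors were lower, against 12.2% of all genes, with a median of -0.45, and 6 of the 6 macrophage factors were higher, against 23.0% of all genes, with a median of 1.57. The part of C3ar1, C5ar1 and F13a1 in these 6 is a description, since they passed the filter through CDAHFD livers alone.

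The rest of both systems was read from a list of 60 further genes, of which 52 were tested. At 1, 2 and 6 weeks 15, 16 and 16 were higher, where 25.9%, 22.9% and 24.5% of all genes were, and 13, 14 and 18 lower, where 15.0%, 14.9% and 16.2% of all genes were, with medians of -0.26, -0.12 and -0.13. In the average over weeks, the highest included Plaur, the urokinase receptor, Anxa2, a cell-surface partner of plasminogen, and Itgb2, the beta chain of the complement receptors CR3 and CR4. Plaur, Plat and Plau, all called higher at each week, passed the filter through CDAHFD livers alone. Their p-values and their part in the 15, 16 and 16 are therefore a description. Plaur was at least 18.4-fold and 24.2-fold higher at 1 and 2 weeks (adjusted p = 1.46e-05 and 5.83e-06) and differed by 4.71 ± 0.37 at 6 weeks (adjusted p = 6.99e-06). Anxa2 averaged 3.36 ± 0.13 and Itgb2 3.04 ± 0.17 (± SE). The lowest included Susd4, a complement inhibitor, at -2.17 ± 0.12, Tfpi2, a protease inhibitor, at -1.14 ± 0.14, and Cfhr2, a factor H-related protein, at -1.0 ± 0.07.

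Of the rest, 4 genes are named that were chosen after their values were seen. Serpinc1, antithrombin, at -0.94, -0.96 and -0.43, and Serping1, the C1 inhibitor, at -0.67, -0.70 and -0.60, were called lower at each week. Procr, the protein C receptor, at 2.29, 2.49 and 2.85, and Thbd, thrombomodulin, at 0.53, 1.65 and 1.57, were called higher at each week. Not tested were C4a, C7, Cd46, Fcnb, F2rl1, F2rl2, F2rl3 and A2m.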

How the data were processed

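Liver RNA was measured on 12 one-colour Agilent arrays, 2 per diet and week, grouped by the labels. The authors deposited linear spot intensities that the scanner software had background-subtracted and detrended inside each array, with no scaling from one array to another, per the file headers. The deposited flags of signal above background and of outlier spots (0 or 1) were used as well. The headers name Feature Extraction 11.5.1.1 and the submitters' processing notes 10.7, so the version is unsettled. The array's design predates the build used here, and the probes' transcript accessions were named through RefSeq's GRCm38.p6 table, which gave 28658 of 55681 probes 1 symbol each.

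Outlier spots were dropped, spots of a probe averaged, and log2 intensities centred on each array's 75th percentile over the 20137 probes above background on all arrays. A gene was read by its brightest probe (highest mean), 13 of the 45 factors had several, and no replicate pair held identical values. Tests used limma 3.58.1 in R 4.3.3 (trend and robust moderation, 6 group means, 6 residual degrees of freedom, 2-sided) on all genes, and the code was tested on simulated data. The number of arrays limits the precision.

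The members and the lists of further genes and markers were chosen with earlier results of these data known. Values per array are given for the members with the smallest and the largest average difference of each role, the macrophage factors, and those that changed between weeks, and of the further genes the 4 with the largest average difference in each direction are named, except those not reported here. Alternatives were other scalings, background corrections, filters, probe rules, moderation, array weights, a replicate block, single slides, later controls, dim spots left out, and each array left out.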

Additional observations from a re-analysis of the deposited data

Results flagged for a closer look

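The interaction test of the limma fit called the diet difference of 2 of the 45 factors between 6 weeks and 1 week, below the share of all genes called (5.40%), and 0 with a replicate block. The change of Klkb1, prekallikrein, was -0.61 (adjusted p = 0.0468), less the median change of all genes (-0.03). That of C3ar1, the C3a receptor, was 1.46 as fitted, but its control arrays of 1 week were below background, so its 1-week difference is a lower limit and no change is read from it. Week 6 was hybridised on another slide than week 1, and slide and week cannot be told apart here. Groups of 2 arrays were too small to test for an outlying sample.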

How the results depend on the processing

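With n = 2 per group, single arrays decided many calls: of 94 called differences, 26 were lost on leaving out some array, 28 under quantile normalization, 9 under normexp and 44 under at least 1 alternative. Hepatocyte-secreted factors called lower ranged over 18 to 23, 19 to 28 and 17 to 28 at 1, 2 and 6 weeks when each array was left out, and macrophage factors called higher over 3 to 6, 6 to 6 and 6 to 6. Members whose difference changed between weeks ranged over 0 to 2, those that differed between 6 weeks and 1 week over 0 to 2, and those that differed between control weeks over 1 to 14. Quantile normalization called 10 hepatocyte-secreted factors at 1 week and 15 at 2 weeks, and 1 factor as changing between weeks. It turned C3 to 0.027 and 0.015 at 1 and 2 weeks, Cfb to 0.22 at 1 week, C4bp to 0.50 and 0.024 at 1 and 2 weeks and Kng1 to 0.10 at 2 weeks, of which C4bp at 1 week was called (adjusted p = 0.00247); the mean of both probes turned Klkb1 to 0.48 at 1 week. Normexp, run on median signals, called 2 macrophage factors at 1 week and also ended the calls of Cfb and Proc at 1 week, C4bp, F12 and Kng1 at 2 weeks and C1ra and C4bp at 6 weeks, and a filter on all arrays, which leaves 3 of the 6 tested, called 1, 3 and 3 at 1, 2 and 6 weeks. Between 6 weeks and 1 week, 1 factor was called with median centring, with the percentile over all probes, with the filter on all arrays and with array weights, and 0 without a filter or with a replicate block. eBayes without trend called 1 factor there and 5 between control weeks.

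Higher calls made up 63.4%, 60.5% and 60.2% of all calls at 1, 2 and 6 weeks, against 45.5%, 48.9% and 48.2% with median centring, 36.1%, 39.2% and 38.1% with the percentile over all probes and 33.2%, 48.3% and 53.3% with normexp. The replicate numbers do not pair the samples: deviations of same-numbered arrays correlated at -0.05, 0.18 and 0.11 at 1, 2 and 6 weeks. With the number as a replicate block, 23, 24 and 26 hepatocyte-secreted factors and 4, 6 and 6 macrophage factors were called. Called values moved by over 1.5 times in 47 cases under quantile normalization, 41 under normexp, 19 without a filter and 15 against controls of 2 and 6 weeks. On slide 1 alone, which holds weeks 1 and 2, 0 factors differed in diet difference between these weeks and 3 within the control diet. For the diet difference, 6 were at an unadjusted p under 0.05 by limma, with no share of all genes to set beside them. Comparisons with 6 weeks span both slides.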
